A study of Mus musculus with 2 samples.

Results

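Tumor cells display surface proteins that leukocytes read, and 10 genes for such checkpoint, costimulatory and adhesion ligands were chosen by name: Cd274, Pdcd1lg2, Cd80, Cd86, Icosl, Cd276, Pvr, Nectin2, Cd47 and Icam1. Of these, 9 were found among the 24223 Ensembl genes counted in mouse CT26 colorectal cancer cells, and Cd86 was not analysed here. The CT26 line derives from a colon carcinoma of a BALB/c mouse. Decitabine (DAC), an analog of deoxycytidine, traps DNA methyltransferases and so lowers DNA methylation. The comparison was between 1 RNA library of cells given 3 doses of 1 μM DAC, 24 h apart, and then kept 24 h without drug, and 1 library of control cells handled in parallel without DAC. With 1 library per group, no difference has a replicate check and no p-value is given.

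The members act at the contact between a tumor cell and a leukocyte. PD-L1 (Cd274) and PD-L2 (Pdcd1lg2) engage PD-1 and restrain T cells, CD80 engages both the activating receptor CD28 and the inhibitory receptor CTLA-4, and ICOS ligand (Icosl) engages ICOS. The poliovirus receptor (Pvr) and nectin-2 (Nectin2) are ligands of the activating receptor DNAM-1 and of the inhibitory receptor TIGIT, CD47 signals through SIRPα on phagocytes against engulfment, ICAM-1 (Icam1) is the ligand of the leukocyte integrin LFA-1, and B7-H3 (Cd276) is a B7 family protein whose receptor is less well settled. Genes of this group, PD-L1 and ICAM-1 among them, are known to respond to interferon-γ and NF-κB signaling in many cell types.

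The libraries held 34221886 counts (control) and 35163420 counts (DAC). Counts were scaled with edgeR's TMM factors to CPM, the count relative to the scaled library size. A gene was measured when it reached a CPM of 1 in either library, which 13545 genes did. The ratio is that of DAC to control CPM, with an exact 95% counting interval after Clopper and Pearson. A gene was called higher from a ratio of 2 upward and lower from 0.5 downward, provided that the interval did not reach 1. The intervals, given in parentheses, cover counting error only, not differences between cultures. For the ratio, a count of 0 was set to 3 counts, 0.0937 CPM in the control and 0.0798 CPM in the DAC library. Such a ratio depends on this setting, while its interval was computed from the count of 0 itself. The mesenchymal markers Vim and Col1a2 were abundant in the control (1128 and 1651 CPM). Of the epithelial and intestinal markers of a colon carcinoma, Krt18 and Krt20 were at 56.1 and 18.5 CPM, but Krt8, Cdx2, Vil1 and Cdh1 had 5, 4, 0 and 0 control counts. In DAC, Krt8 had 4445 counts, and 4 of 5 measured epithelial markers were called higher, against 10.8% of all measured genes. Of these 4, 3 (Krt8, Krt19 and Elf3) passed the CPM minimum through the DAC library only.

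Among the 9 members, Icam1 was higher in DAC, none was lower by the 2-fold rule, and the well-expressed ligands lay at or below their control level. Icam1 went from 0 control counts to 51 with DAC (1.36 CPM), 14.5-fold higher when the control is set to 3 counts (interval from 11.4). Pvr, Cd47, Cd274, Cd80 and Nectin2 had ratios between 0.57 and 0.766, with intervals below 1. Cd276 had a ratio of 0.967 with an interval that includes 1, and Icosl and Pdcd1lg2 did not reach the CPM minimum. In RNA of a whole culture, fewer cells that express a gene and less RNA per cell cannot be told apart.

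Of the 7 measured members, 1 was called higher and 0 were called lower, while 10.8% of all 13545 measured genes were called higher and 5.29% lower (1468 and 716 genes, or 1889 and 458 when scaled by library totals). The median log2 ratio of the 7 members was -0.43, against -0.02 over all measured genes. Icam1 entered the 7 only through its DAC count. An interval wholly below 1 was seen for 5 of the 7 members and for 40.3% of all measured genes. Intervals narrow as counts rise, and at a CPM minimum of 5 these were 5 of 6 members and 45.7% of genes. At a fold of 1.5 in place of 2, Cd47 and Pvr were called lower, as were 15.2% of all measured genes. Scaling by library totals shifts all log2 ratios up together, to a median of 0.18 over all genes, and there the same 5 members had intervals below 1.

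**Figure D1:**
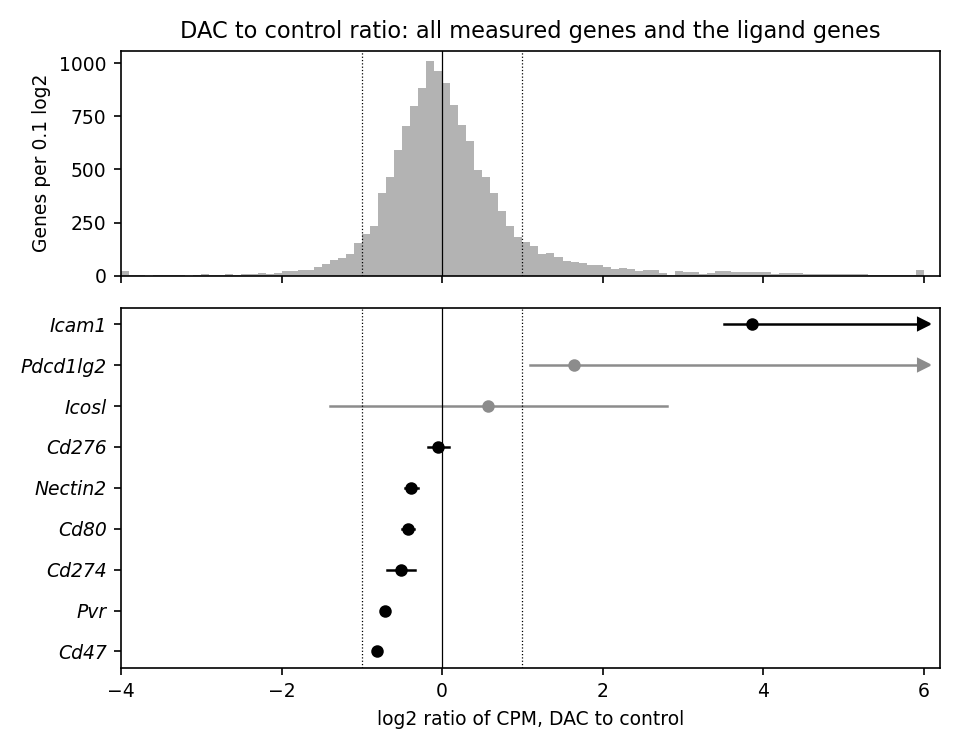
Upper panel, number of genes per 0.1 step of the log2 ratio of DAC to control over the 13545 measured genes, with genes beyond the axis placed in the end bins. Lower panel, log2 ratio (points) and 95% counting interval (lines) of the 9 members, in gray below the CPM minimum, with arrows for intervals without an upper end because the control count was 0; dotted lines mark 2-fold, and only Icam1 lies beyond them among the members past the minimum.

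Icam1 lies on chromosome 9 of GRCm38 from 21015985 to 21028817 on the plus strand. Per length, it stayed the lowest of the measured members even in DAC, at 0.311 FPKM (counting interval 0.232 to 0.409; FPKM here is CPM per 1000 bases of merged exons), when Cd274 was at 3.66. An antisense gene, Gm47079, overlaps it with 0 control and 8 DAC counts and shares 18.6% of the 50-base stretches of the longest Icam1 transcript, and without a stated strand setting, reads of the pair cannot be told apart. With a prior count of 2 added to each library the log2 ratio of Icam1 was 3.18 instead of 3.86, and at a CPM minimum of 5 it was no longer measured.

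Pdcd1lg2 also had 0 control counts, and 11 in DAC (0.293 CPM), 3.12-fold higher against 3 counts (interval from 2.14). An antisense gene, A930007I19Rik, overlaps it with 18 and 16 counts. Its level stayed under the CPM minimum, so it was not called, although without that minimum it would be. Its neighbor Cd274 was expressed in both libraries. The Cd274 gene (chromosome 19, 29367455 to 29388095) and Pdcd1lg2 (29410919 to 29471161) are 22.8 kb apart on the same strand. Cd274 had 607 control and 498 DAC counts, 18.95 and 13.3 CPM, a ratio of 0.699 (0.62 to 0.788). PD-L1 RNA was thus 1.43-fold lower in DAC by CPM, short of the 2-fold rule, and 2488 measured genes had a lower ratio. The fall was smaller in other settings. Its log2 ratio of -0.52 became -0.32 by library totals and -0.35 after centring on the GC content of the transcripts. Of the 50-base stretches of the Cd274 transcript, 12.4% occur in other genes, 214 in number.

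To show what the start sites of the silent and the expressed members look like, RefSeq promoter windows (GRCm38.p6) of 250 bases before and 50 bases from the start are given for Icam1, which went from 0 to 51 counts, for the PD-1 ligands Cd274 and Pdcd1lg2, and for Cd80, which is well expressed in both libraries. CpG dinucleotides, the sites of DNA methylation that DAC lowers, are in capitals. All are on the plus strand, at chr9:21015690-21015989, chr19:29367188-29367487, chr19:29410669-29410968 and chr16:38458683-38458982.
Icam1: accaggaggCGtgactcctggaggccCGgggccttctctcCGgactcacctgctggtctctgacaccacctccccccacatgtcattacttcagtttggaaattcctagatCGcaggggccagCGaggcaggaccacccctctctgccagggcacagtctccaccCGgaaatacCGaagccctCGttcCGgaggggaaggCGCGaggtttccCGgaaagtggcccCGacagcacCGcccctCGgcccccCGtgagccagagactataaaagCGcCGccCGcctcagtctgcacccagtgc
Cd274: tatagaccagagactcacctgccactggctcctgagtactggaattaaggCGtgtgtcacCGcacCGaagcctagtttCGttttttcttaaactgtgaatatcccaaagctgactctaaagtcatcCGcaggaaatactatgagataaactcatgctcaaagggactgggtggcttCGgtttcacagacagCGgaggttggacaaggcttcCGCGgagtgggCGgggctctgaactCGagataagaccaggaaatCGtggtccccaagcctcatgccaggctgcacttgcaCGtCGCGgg
Pdcd1lg2: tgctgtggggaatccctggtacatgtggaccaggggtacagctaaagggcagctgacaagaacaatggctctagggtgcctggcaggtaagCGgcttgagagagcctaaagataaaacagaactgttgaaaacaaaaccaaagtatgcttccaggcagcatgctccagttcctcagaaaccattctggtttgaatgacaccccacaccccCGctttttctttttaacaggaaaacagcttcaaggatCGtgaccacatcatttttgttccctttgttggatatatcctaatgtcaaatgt
Cd80: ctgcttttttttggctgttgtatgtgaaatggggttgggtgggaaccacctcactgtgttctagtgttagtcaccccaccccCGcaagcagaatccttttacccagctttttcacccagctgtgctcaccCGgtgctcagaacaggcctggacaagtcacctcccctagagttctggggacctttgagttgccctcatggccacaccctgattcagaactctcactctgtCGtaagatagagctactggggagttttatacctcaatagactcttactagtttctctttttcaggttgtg

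The members with 0 control counts, Icam1 and Pdcd1lg2, were unlike in these windows. Icam1 had 19 CpG dinucleotides, more than 71.9% of the 32851 promoter windows in the table, and Pdcd1lg2 had 3, more than 23.3%. Cd80, with 2913 control counts, also had 3, and Cd274 had 15. The other members ranged from 20 (Nectin2) and 26 (Icosl) to 35 or 36 in both Cd47 windows and 39 (Cd276), against a median of 7 over all windows. Windows were found for 8 of the members, and those of Cd80, Cd47, Cd276 and Nectin2 lie inside the gene bounds given here, downstream of other annotated starts. Methylation at these sites was not analysed here, so no relation to the RNA values was tested.

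**Figure D2:**
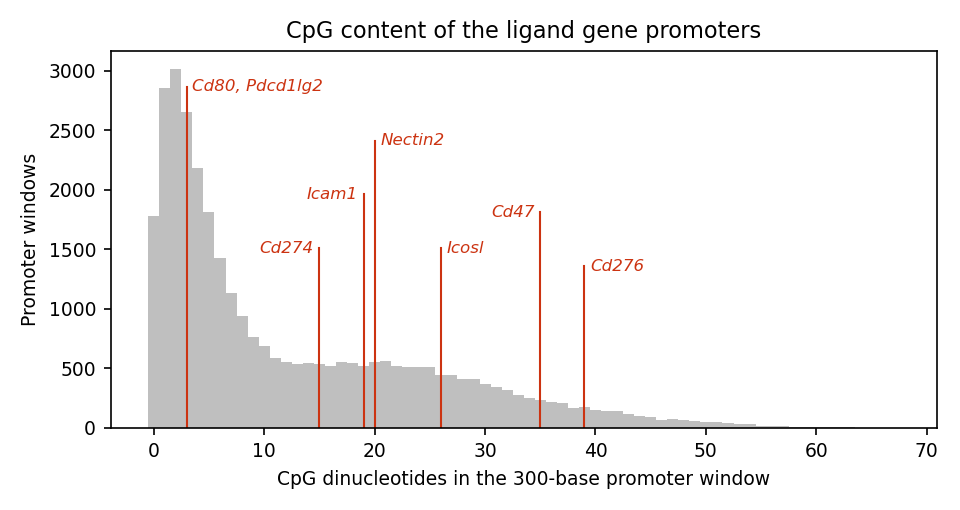
Number of promoter windows (y axis) by CpG dinucleotides in the 300-base window (x axis) over 32851 RefSeq windows (gray), with the members as red lines whose height carries no value and the first of both Cd47 windows shown. Cd80 and Pdcd1lg2 stand at 3 and Cd276 at 39.

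The windows were searched on both strands for an IRF and an NF-κB motif. The IRF element core GAAANNGAA occurred in Cd274 alone among the members, on the minus strand from base -76 to -68 before the start, where the plus strand reads TTCGGTTTC, and in 8.56% of all windows. The NF-κB consensus was searched as GGGRNNYYCC, where R is A or G, Y is C or T and N is any base. It matched Pdcd1lg2 (GGGGAATCCC, -244 to -235) and Icosl (GGAGCTCCCC as read on the plus strand, -111 to -102), and 8.46% of all windows. Icam1, Nectin2, Cd276, Cd80 and Cd47 had no match to either pattern in these windows. The Icam1 window holds TGGAAATTCC, which departs from the NF-κB pattern at its first base only. Looser patterns were not searched, so the lack of a match does not show that a window lacks NF-κB sites. A match in letters does not show that a factor binds there.

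The poliovirus receptor gene was the most abundant member in both libraries. Pvr, on chromosome 7 from 19903578 to 19921160, had 15612 control and 11213 DAC counts, or 487.5 and 298.4 CPM, a ratio of 0.612 (0.597 to 0.627). A processed pseudogene within its bounds, Gm16184, had 150 and 128 counts. Nectin2, 153.1 kb away on the same chromosome and strand, had 2713 and 2440 counts, 84.7 and 64.9 CPM, a ratio of 0.766 (0.725 to 0.81). Both ligands of TIGIT and DNAM-1 were lower in DAC by less than 2-fold, and in the main setting their intervals did not overlap. The gap depended on the setting. After centring on the GC content of the transcripts, the log2 ratios were -0.64 for Pvr and -0.65 for Nectin2, instead of -0.71 and -0.38. Per length, Pvr stood 3.28 times above Nectin2 in the control (3.15 to 3.42) and 2.62 times in DAC (2.51 to 2.74). With the longest transcript as length these were 5.42 and 4.33, since the merged exons of Pvr (6122 bases) are far longer than its longest transcript (2905 bases).

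In the main setting, Cd47 had the lowest ratio of the members. It lies on chromosome 16 from 49800533 to 49915010 and had 7873 control and 5266 DAC counts, 245.8 and 140.1 CPM, a ratio of 0.57 (0.55 to 0.59), or 1.75-fold lower. Of the measured genes, 1125 had a lower ratio. After centring on the GC content of the transcripts its log2 ratio was -0.54 instead of -0.81. It was then no longer the lowest, with Pvr at -0.64 and Nectin2 at -0.65.

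Cd80, a costimulatory gene known mainly from antigen-presenting cells, was well expressed in CT26 cells. On chromosome 16 from 38455561 to 38496335, it had 2913 control and 2542 DAC counts, 90.96 and 67.6 CPM, a ratio of 0.744 (0.705 to 0.785). After GC centring its log2 ratio was -0.15 in place of -0.43. CD80 can bind PD-L1 on the same cell, so the levels of both genes were set side by side. Per length, Cd80 stood 4.69 times above Cd274 in the control (4.3 to 5.13) and 4.99 times in DAC (4.53 to 5.51), and these intervals overlapped.

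Cd276 and Icosl complete the B7 family members. Cd276 (chromosome 9, 58524298 to 58555437) had 858 control and 974 DAC counts, 26.8 and 25.9 CPM, and its ratio of 0.967 (0.882 to 1.06) turned to a log2 ratio of 0.14 by library totals and -0.23 after GC centring. Icosl (chromosome 10, 78069302 to 78083913) had 4 and 7 counts, a ratio of 1.49 whose interval from 0.379 to 6.95 leaves its direction undetermined at this depth.

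In levels per length, the order in the control was Pvr at 79.6 FPKM, Cd47 at 39.2, Cd80 at 24.6, Nectin2 at 24.2, Cd276 at 7.32, Cd274 at 5.23 and Icosl at 0.027, with Icam1 and Pdcd1lg2 at 0 counts. In DAC it was Pvr at 48.7 FPKM, Cd47 at 22.3, Nectin2 at 18.6, Cd80 at 18.3, Cd276 at 7.09, Cd274 at 3.66, Icam1 at 0.311, Pdcd1lg2 at 0.149 and Icosl at 0.0403. Cd80 and Nectin2 changed places but did not differ beyond counting error in either library, with level ratios of Cd80 to Nectin2 of 1.01 (0.961 to 1.07) and 0.983 (0.93 to 1.04). By the longest transcript, Nectin2 was above Cd80 in both, at ratios of Cd80 to Nectin2 of 0.926 (0.878 to 0.976) and 0.898 (0.849 to 0.95). The median level of measured genes was 6.55 FPKM in the control, so Cd274 lay below it and Pvr, Cd47, Cd80 and Nectin2 well above. By merged exon length, Pvr alone made up 44.2% of the members' summed level in the control and 40.9% in DAC. The sum over the members was 180.2 FPKM in the control and 119.2 in DAC. Both share and sum depend on the length used. By its longest transcript, Pvr was at 167.8 FPKM in the control and 102.7 in DAC.

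**Figure D3:**
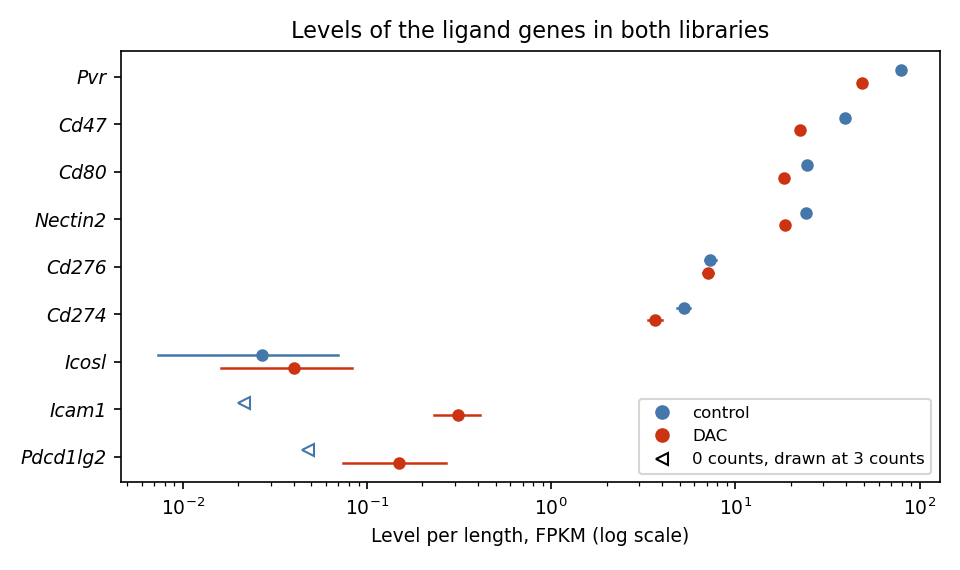
Level per length in FPKM (x axis, log scale) of the 9 members in the control (blue) and DAC (red) libraries, with 95% exact Poisson counting intervals as lines and counts of 0 drawn as open triangles at 3 counts. The 4 most abundant members lie to the left of their control point in DAC, while Icam1 and Pdcd1lg2 were counted in DAC only.

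Of 12 leukocyte receptor genes for the members, 5 were in the count tables and 2, Itgb2 and Tigit, were measured. Itgb2, the β2 subunit that LFA-1 and other leukocyte integrins share, was 6.28-fold higher in DAC (4.86 to 8.24), with 67 control and 494 DAC counts. Its LFA-1 partner Itgal had 5 and 0 counts. Tigit, the inhibitory receptor for Pvr and Nectin2, had 1879 and 1154 counts, 63.8 and 33.4 FPKM, a ratio of 0.523 (0.486 to 0.564), not called. Of the 50-base stretches of the Tigit transcript, 4.37% occur in other genes. Cd28 had 0 and 3 counts and Pvrig 0 and 7.

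Of 16 other adhesion genes, 13 were in the tables and 6 were measured, of which 2 were higher and 0 lower. Among all measured genes these shares were 10.8% and 5.29%. Icam2, an LFA-1 ligand of endothelium and leukocytes, had 0 control and 54 DAC counts, 15.3-fold higher against 3 counts (interval from 12.1). F11r, the junctional adhesion molecule JAM-A, had 4 and 82 counts, a ratio of 17.5 (6.57 to 65.6). Icam2 entered the measured genes through its DAC count alone, and F11r likewise. Vcam1, the ligand of the integrin VLA-4, had a ratio of 1.05 (1.01 to 1.11), and Cd44, a hyaluronan receptor and the most abundant of the list, 0.862.

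Markers of blood cells were looked at beside these adhesion genes. Of 20 leukocyte markers, 10 were in the tables and 4 were measured. The whole list summed to 32.8 CPM in the control and 48.5 CPM in DAC, most of it from Cd53 (16.1 and 20.7 CPM) and Cd68 (14.7 and 21.5 CPM). The pan-leukocyte gene Ptprc had 3 control and 0 DAC counts and Flt3 likewise, Itgax had 3 and 4, and Cd4 4 and 13. Laptm5 had 0 control and 24 DAC counts, and Lyz2 had 31 and 17, both below the CPM minimum. Of the 4 measured, 2 were called higher, against 10.8% of all measured genes. They were Coro1a, an actin regulator (3 and 63 counts), and Cd79a, of the B cell receptor (19 and 112 counts). Both passed the CPM minimum through the DAC library only. Of 5 endothelial markers, 4 were in the tables and none was measured, with 29 counts in all in the control and 37 in DAC. The part of such cells in the values of Icam1, Icam2 and Itgb2 was not tested.

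Among 26 other ligands of T cell, NK cell and phagocyte receptors, 19 were in the tables and 11 were measured, with 1 higher and 2 lower, a median log2 ratio of -0.54. All measured genes had 10.8% higher, 5.29% lower and a median of -0.02. Nectin1, a cell adhesion relative of Nectin2, was 3-fold higher (2.53 to 3.58). Ceacam1, a ligand of itself and of TIM-3, was 2.56-fold lower, and Ulbp1, a stress ligand of the NK cell receptor NKG2D, 2.4-fold lower. Ulbp1 was just short of the 2-fold rule after GC centring, at a log2 ratio of -0.99. Lgals3, the most abundant by CPM in the control, had a ratio of 0.578 (0.567 to 0.589), and Vtcn1, the B7 family gene of B7-H4, 0.686 (0.587 to 0.801).

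Genes of the signaling that induces PD-L1 and ICAM-1 were measured throughout. For scale, 10.8% of all measured genes were called higher and 5.29% lower. Of 12 genes from the interferon-γ receptor to IRF1, 2 were higher and 0 lower, with a median log2 ratio of -0.04: Irf1, the transcription factor at the end of that path, 2.53-fold (2.31 to 2.76), and Socs1, its feedback inhibitor, 2.45-fold (1.94 to 3.12). Jak2, a kinase of the receptor, had a ratio of 0.868 (0.83 to 0.907). Of 12 NF-κB genes, 2 were higher and 1 was lower, with a median of 0.14. The inhibitor genes Nfkbia and Nfkbie were 3.39-fold (3.02 to 3.81) and 2.83-fold (2.37 to 3.38) higher, while Tnfaip3, which encodes the A20 brake on NF-κB and is itself a target of it, was 2.58-fold lower. Relb, at 1.78, passes 2-fold by library totals (log2 ratio 1.02). Of 12 genes whose proteins modify or stabilize PD-L1 or CD47, none was called, with a median of 0.01. Cmtm6, which keeps PD-L1 at the cell surface, had a ratio of 1.18 (1.09 to 1.29), and Qpctl, the enzyme that modifies CD47 for SIRPα binding, 1.21 (1.04 to 1.41).

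**Figure D4:**
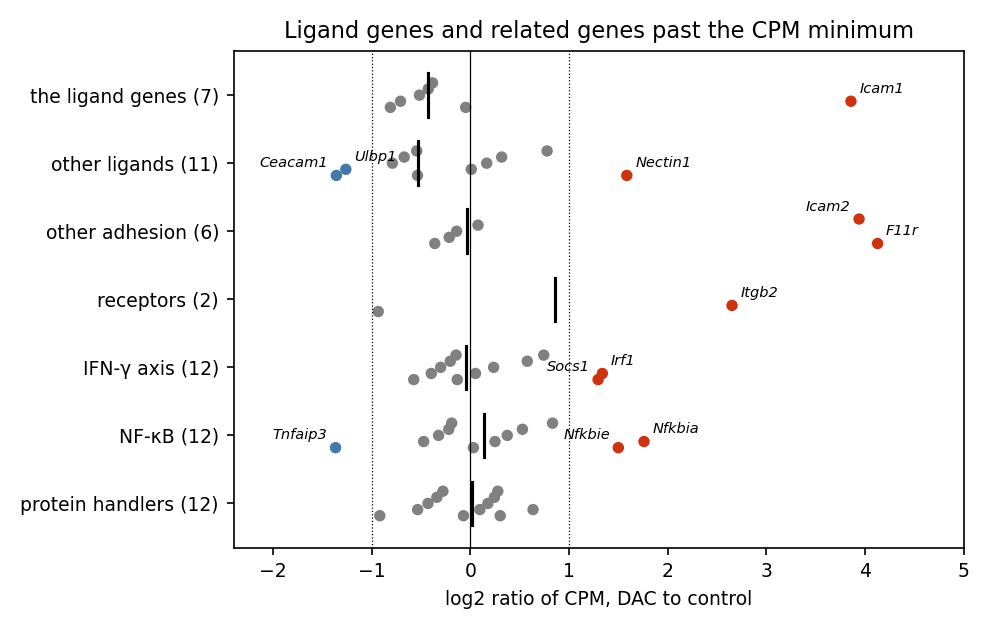
On the x axis, log2 ratios (DAC over control) of the measured genes of the ligand list and 6 related lists, with the number measured in parentheses, genes called higher in red, lower in blue and the others in gray (spread vertically for view). Black bars are list medians, for the members -0.43, dotted lines mark 2-fold, and called genes are named.

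The members were also placed among their nearest neighbors in the genome, taking the 2 nearest protein-coding genes with counts on each side. Of 32 such neighbors outside the list, 24 were measured, 7 were higher and 3 were lower, where 10.8% and 5.29% of all measured genes were. Of the higher ones, Insl6, Rec114, Igsf23 and Bcl3 passed the CPM minimum through the DAC library only, and of the lower ones Aire through the control only, so the counts of calls are a description. Beside Icam1, S1pr2, a sphingosine receptor gene, was 2.3-fold higher (2.09 to 2.52), Mrpl4 had a ratio of 0.825, and the adjoining Icam4 and Icam5 had 6 and 3 control and 9 and 18 DAC counts. Beside Nectin2, Bcl3, a nuclear IκB protein gene, was 7.6-fold higher (4.92 to 12.3) and Apoe 2.61-fold (2.19 to 3.13). Beyond Pdcd1lg2, Ric1 was 2.5-fold lower. Insl6, on the other side of Cd274, was 3.28-fold higher (1.75 to 6.58), and Plgrkt, which starts 0.065 kb from Cd274, had a ratio of 0.761 (0.685 to 0.845), beside 0.699 for Cd274. Beside Cd80, Adprh was 2.85-fold lower and Pla1a 4.6-fold higher (3.34 to 6.47), and of the genes beside Cd47 none was called. Rec114 beside Cd276 and Igsf23 beside Pvr were 3.75-fold and 4.05-fold higher. Aire, the autoimmune regulator gene beside Icosl, had 34 control and 0 DAC counts, 13.3-fold lower when the DAC count is set to 3.

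**Figure D5:**
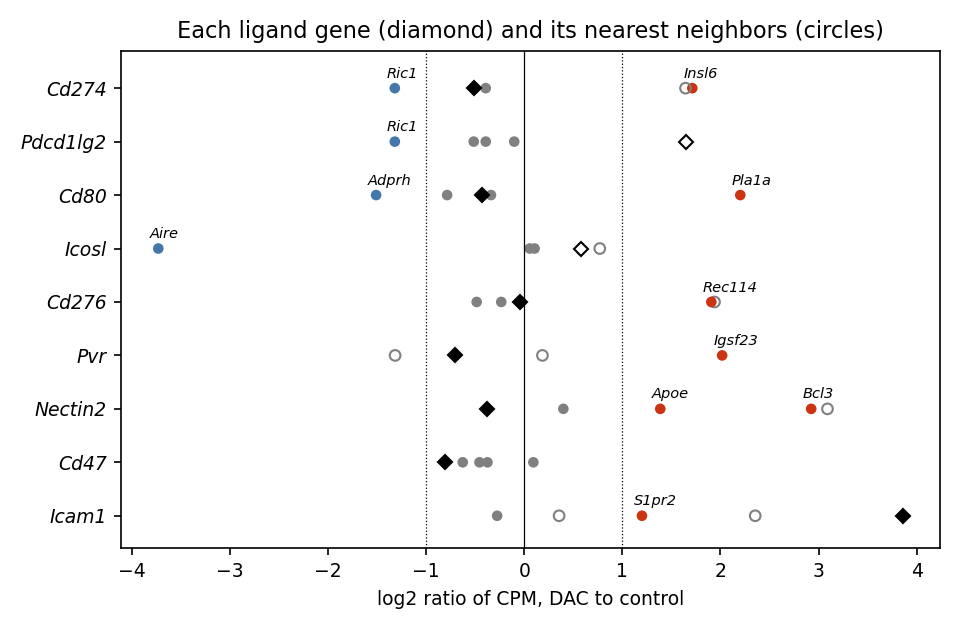
On the x axis, log2 ratios (DAC over control) for each member (diamonds) and its 2 nearest protein-coding genes with counts on each side (circles, red higher, blue lower, gray not called, open below the CPM minimum, and Vmn1r93 beside Pvr, with no ratio, left out). Higher neighbors of Icam1 and Nectin2 are S1pr2, Apoe and Bcl3, while all neighbors of Cd47 lie within 2-fold.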

How the data were processed

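The authors deposited 1 table of whole-number counts per Ensembl gene for each library, not normalized. Tools listed by the submitters are STAR 2.5.3a, StringTie 1.3.1c, Cufflinks, DESeq, Trim Galore and FastQC, with mm10 as the build. The methods of the paper instead describe FPKM values from CASAVA, so the counting tool and its strand setting are not known here. Of the 24223 genes in the tables, 24122 matched GENCODE mouse release M21 on GRCm38 (mm10), which gave symbols, coordinates and exon lengths. Promoters came from RefSeq (GRCm38.p6).

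TMM factors came from edgeR 4.0.16, and DESeq2 1.42.0 gave alternative size factors. Ratios and intervals were computed with scipy 1.17.1. No count model was run, since each group has 1 library. The call rule was run on simulated Poisson counts, as a check of the code. These hold no differences between cultures, so they cannot show how reliable calls from 1 library per group are. The members and the 11 related lists were chosen with earlier results of these data known. Named were all members, up to 4 genes of each related list (called ones first, then the most abundant), and neighbors that were called or lie beside a called member. Other genes, such as Vcam1, Vtcn1, Jak2, Relb, Cmtm6, Qpctl, Plgrkt, the receptors and the markers, were named after their values were seen. Scaling, minimum CPM, fold, prior count, interval and GC centring were varied, and the transcript length and the tally of intervals below 1 were added after seeing the data. More genes had exactly 3 counts (1176 control, 1240 DAC) than 4 (596 and 650), and why was not tested. Values of 1 listed gene and 1 motif are not reported here.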

Additional observations from a re-analysis of the deposited data

How the results depend on the processing

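Icam1 was the only member called higher under library totals, DESeq2 size factors, upper-quartile factors, a fold of 1.5 or 4, a prior count of 2, GC centring and intervals from counts divided by 3. Without a filter on low counts 2 members were higher, Pdcd1lg2 being added, and at a CPM of at least 5 the number was 0, because Icam1 was then not measured. The number of members called lower was 0 under each of these settings except a fold of 1.5, where it was 2. The median log2 ratio of the members moved furthest by library totals, to -0.24, where the median over all measured genes was 0.18. It stayed between -0.47 and -0.35 under the others. The tally of 5 members with intervals below 1 was 5 under library totals and 6 after GC centring, which adds Cd276. Over all genes that share was 27.9% by library totals, 38.3% after GC centring and 45.7% at a CPM of at least 5. Pvr, Cd47, Cd274, Cd80 and Nectin2 had negative log2 ratios under all scalings run, Cd80 between -0.43 and -0.15, and Cd276 changed sign (-0.23 to 0.14). Over all genes, the 1468 higher and 716 lower became 2672 and 1239 without a filter, 684 and 450 at a CPM of at least 5, 2612 and 2059 at a fold of 1.5, and 579 and 112 at a fold of 4; by library totals the lower ones were 458. Depth limits Icosl and Pdcd1lg2, at 11 counts or fewer in each library. With 1 library per group, no replicate could be left out, and differences between cultures were not measured.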

Other observations

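Tigit, which is usually a gene of T and NK cells, lies on chromosome 16 of GRCm38 from 43648867 to 43664146, 6.265 kb from Zbtb20, a zinc finger gene on the opposite strand 2.27-fold lower in DAC (2578 against 1333 counts). On its other side, Drd3, a dopamine receptor gene 89.9 kb away, had 0 and 2 counts. No other leukocyte receptor of the list came near its 1879 control counts, the next being Itgb2 with 67. Tigit and its neighbors were looked at after their values were seen, and no cause of its level was tested.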
